A study of Mus musculus with 9 samples.

Results

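The interleukin 6 and interleukin 12 cytokine family was followed in monocytes from mouse spleen through its cytokine subunits Il6, Il12a, Il12b, Il23a, Il27 and Ebi3 and its receptor chains Il6ra and Il6st. These 8 genes were taken by their gene name from an RNA-seq count table of 26770 genes, and all 8 were found. The table covered 9 libraries of wild-type cells in 3 groups of 3. Cells given octanal, an aldehyde that activates the olfactory receptor Olfr2, had first been primed with a low dose of lipopolysaccharide (LPS, the outer membrane component of Gram-negative bacteria that Toll-like receptor 4 detects). They received octanal at 20 µM, and the labels of replicates 1, 2 and 3 give 18, 19 and 20 hours for it. Cells given LPS alone received 40 ng/ml for 5 hours. Untreated cells received the solvent DMSO, at a dilution of 1 in 1000, 1001 and 1002 by the labels of replicates 1, 2 and 3. The labels name DMSO for the untreated cells alone. They give no LPS concentration or hours for the cells with octanal. Nor do they say that cells of the other groups were cultured as long as those with octanal. So octanal, LPS exposure, solvent and time in culture cannot be told apart. The study's title places these cells in work on Olfr2 in monocytes after myocardial ischaemia and reperfusion. Nothing in the labels says whether replicates were separate animals or cultures, so a p-value here covers only the spread between these libraries, which may be technical.

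Interleukin 6 signals by binding its receptor chain Il6ra and then the shared signal-transducing chain gp130, encoded by Il6st, which activates JAK kinases and the transcription factor STAT3. The interleukin 12 family is built from pairs of subunits. Il12a (p35) and Il12b (p40) form interleukin 12, a driver of T helper 1 responses, and Il23a (p19) and Il12b form interleukin 23, which sustains T helper 17 cells. Il27 (p28) and Ebi3 form interleukin 27, and Il12a and Ebi3 form interleukin 35, both known for restraining as well as shaping T cell responses. Myeloid cells that meet LPS are a main source of these cytokines, and NF-kappaB, AP-1, C/EBP and IRF factors act on their promoters.

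The RefSeq sequences (build GRCm38.p6) before the transcription starts of Il6, Ebi3 and Il12a are shown because these genes carried the called changes. Each run holds the 250 bases before the start, 5′ to 3′ on the strand of the gene, and capitals mark matches to an NF-kappaB, AP-1 or C/EBP motif.
Il6, chr5:30012864-30013113, plus strand: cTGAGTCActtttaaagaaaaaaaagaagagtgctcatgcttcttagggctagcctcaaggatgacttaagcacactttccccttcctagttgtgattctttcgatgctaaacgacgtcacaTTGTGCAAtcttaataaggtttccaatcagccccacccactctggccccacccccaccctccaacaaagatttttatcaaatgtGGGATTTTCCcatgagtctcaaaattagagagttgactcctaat
Ebi3, chr17:55952373-55952622, plus strand: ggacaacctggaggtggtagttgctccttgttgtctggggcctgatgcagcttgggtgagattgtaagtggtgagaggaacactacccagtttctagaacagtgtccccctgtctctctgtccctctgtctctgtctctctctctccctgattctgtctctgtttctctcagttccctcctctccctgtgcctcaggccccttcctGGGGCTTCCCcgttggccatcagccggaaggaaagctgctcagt
Il12a, upstream start, chr3:68690394-68690643, plus strand: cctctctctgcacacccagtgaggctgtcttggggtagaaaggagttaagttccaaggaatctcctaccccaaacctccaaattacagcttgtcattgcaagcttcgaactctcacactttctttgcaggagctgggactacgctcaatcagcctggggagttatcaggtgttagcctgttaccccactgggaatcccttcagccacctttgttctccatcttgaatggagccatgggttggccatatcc
Il12a, downstream start, chr3:68691174-68691423, plus strand: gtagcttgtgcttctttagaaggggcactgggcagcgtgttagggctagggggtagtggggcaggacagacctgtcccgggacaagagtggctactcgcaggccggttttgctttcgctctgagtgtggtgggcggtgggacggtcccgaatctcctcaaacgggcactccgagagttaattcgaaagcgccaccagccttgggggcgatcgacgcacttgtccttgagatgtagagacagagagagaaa
In Il6 the capitals are, from the left, an AP-1 match (TGAGTCA) at bases -249 to -243, a C/EBP match (TTGTGCAA) at -128 to -121 and an NF-kappaB match (GGGATTTTCC) at -44 to -35. In Ebi3 they are an NF-kappaB match (GGGGCTTCCC) at the same distance, -44 to -35. Neither Il12a window held a match to any motif searched. The RefSeq start of Ebi3 lies upstream of the start in GENCODE M21.

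The search covered both strands of 300-base windows, 250 before and 50 after the start. It used the 10-base NF-kappaB consensus, AP-1 as TGANTCA, C/EBP as TTNNGNAA, the consensus of the interferon-stimulated response element and the TATA box as TATAAA. Of all 32851 such windows, 8.46% held an NF-kappaB match, 7.81% an AP-1 match, 40.7% a C/EBP match, 3.44% a response element match and 13.6% a TATA match. Windows were found for 6 of the 8 genes. Ebi3 had a second NF-kappaB match at bases 15 to 24 after the start, Il6ra had C/EBP matches at -116 to -109 and -70 to -63, and the windows of Il12b and Il6st held none of these letters. A match is a description of the sequence and not a site.

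All 8 genes are protein-coding in GENCODE M21 (GRCm38). Il12a (ENSMUSG00000027776) lies on the plus strand at chr3:68690644-68698547 and Il6ra (ENSMUSG00000027947) on the minus strand at chr3:89864059-89913196. Il6 (ENSMUSG00000025746) lies at chr5:30013114-30019981, plus strand, and Il27 (ENSMUSG00000044701) at chr7:126589010-126594941, minus strand. Il23a (ENSMUSG00000025383) is at chr10:128296139-128298752, minus strand, and Il12b (ENSMUSG00000004296) at chr11:44400063-44414033, plus strand. Il6st (ENSMUSG00000021756) is at chr13:112464070-112510086 and Ebi3 (ENSMUSG00000003206) at chr17:55952640-55957022, both on the plus strand. Exons of Il27 overlap those of Apobr on the opposite strand, and exons of Il6ra and Ebi3 overlap those of the antisense genes Gm42809 and Gm16712. The use of strand in counting is not given in the sources used here, so reads in these overlaps cannot be assigned with certainty.

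Each library held 29594291 to 38388421 counts. Between replicates of 1 group, chi-square per degree of freedom was 42.9 to 142, so all 9 pairs of replicates differed by more than counting error. The monocyte genes Lyz2, Csf1r and Cd14 were present in every library, while Ly6c2, a marker of classical monocytes, was at 0.625 to 1.01 CPM (counts scaled by library size) in LPS with octanal, 0.387 to 7.9 in LPS and 2.82 to 249 in untreated cells. Ccr2 averaged 1.5, 1.48 and 14.6 CPM in the same groups, F13a1 10.5, 5.16 and 125, and Fcgr1 1.09, 1.4 and 1.24. Of 9 classical monocyte markers 5 fell in LPS against untreated, Lyz2 and Ly6c2 among them, and 1 rose, beside 17.6% of all genes called lower and 15.2% higher. Summed over 12 neutrophil markers, levels were 4760 to 11600 CPM in LPS with octanal, 1470 to 1890 in LPS and 12900 to 25100 in untreated cells. Summed over the 9 of 10 listed T cell markers found in the table, levels were 621 to 942 CPM in LPS with octanal, 1070 to 1290 in LPS and 121 to 594 in untreated cells, and Cd3e was above 0 in all libraries. All 9 T cell markers rose in LPS against untreated, beside 15.2% of all genes called higher, and 11 of the 12 neutrophil markers fell, beside 17.6% of all genes called lower. The sum of 12 dendritic cell markers was 1340 CPM in LPS with octanal replicate 1 and 620 and 644 in replicates 2 and 3, against 1130 to 1270 in LPS and 623 to 799 in untreated cells. The part of these cell types in the results below was not tested, and in bulk RNA fewer cells of a type and less RNA per cell cannot be told apart.

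**Figure D1:**
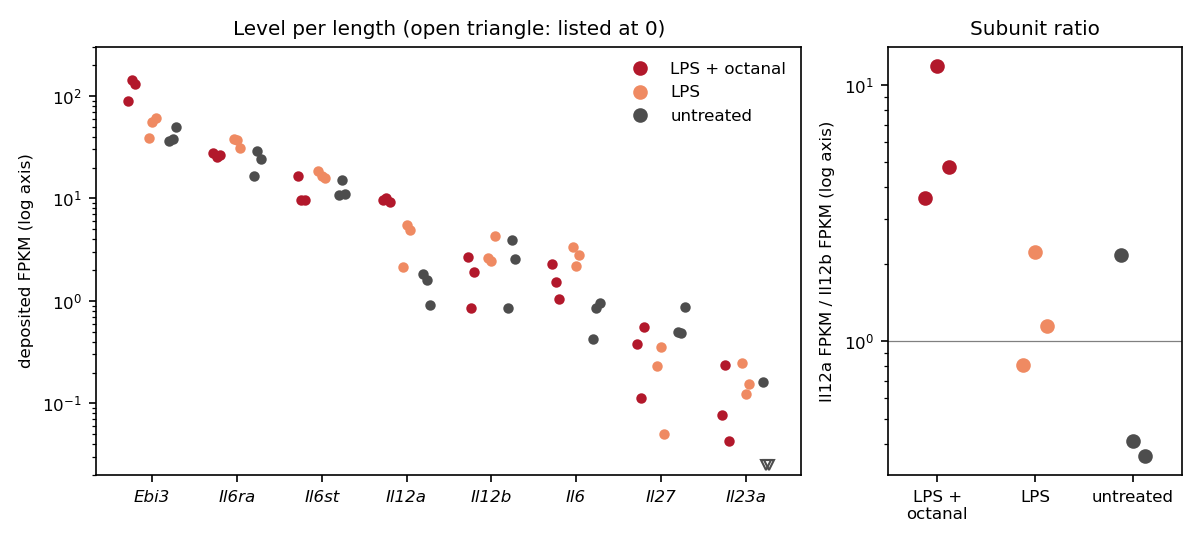
Left, level of the 8 genes in deposited FPKM (log axis) in LPS with octanal, LPS and untreated libraries, and right, the ratio of Il12a to Il12b FPKM (log axis, line at 1); each point is a library, and open triangles mark the 2 untreated libraries where Il23a is listed at 0. Ebi3 was the highest of the 8 in each group, with means of 121, 51.6 and 41.1 FPKM, and Il23a the lowest, with 0.119, 0.176 and 0.0536 FPKM, and the ratio is highest with octanal, at 3.61 to 11.8.

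Between genes, levels were compared per length with the FPKM that the authors deposited, as shown in the plot of FPKM by group. In LPS with octanal the means fell in the order Ebi3 at 121 FPKM, Il6ra at 26.5, Il6st at 11.9, Il12a at 9.67, Il12b at 1.82, Il6 at 1.61, Il27 at 0.351 and Il23a at 0.119. In LPS the order of mean FPKM was the same, with Ebi3 at 51.6, Il6ra at 35.6, Il6st at 17.1, Il12a at 4.19, Il12b at 3.13, Il6 at 2.8, Il27 at 0.212 and Il23a at 0.176. In untreated cells Il12b stood above Il12a, and the means were 41.1 FPKM for Ebi3, 23.5 for Il6ra, 12.3 for Il6st, 2.45 for Il12b, 1.45 for Il12a, 0.74 for Il6, 0.623 for Il27 and 0.0536 for Il23a. Neighbours whose libraries overlapped were Il6st and Il12a in LPS with octanal, Il12a and Il12b in LPS, Il12b and Il6 in both of these groups, and Il27 and Il23a in both. In untreated cells the libraries of Il12b, Il12a, Il6 and Il27 overlapped from each to the next. So Ebi3 transcripts, per length, stood above both receptor chains in each group, and those of the cytokine subunit Il27 that pairs with Ebi3 stood far below.

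Il6, the ligand of the family's first branch, was low in all groups. It was at 3.91, 2.34 and 1.71 CPM in LPS with octanal replicates 1, 2 and 3, at 4.97, 3.13 and 5.15 CPM in LPS, and at 0.699, 1.34 and 1.63 CPM in untreated cells. Every library of both LPS groups was above every untreated library, while the LPS groups overlapped each other. The counts behind these values were 52 to 136 in LPS with octanal, 100 to 193 in LPS and 26 to 46 in untreated cells. Il6 rose in LPS, to a mean of 4.41 ± 1.11 CPM, against 1.22 ± 0.476 CPM in untreated cells (SD, n = 3 each). The fold was 3.63, with a log2 fold change of 1.86 ± 0.43 (SE) and an adjusted p of 0.013 by edgeR's quasi-likelihood test with Benjamini-Hochberg adjustment. In LPS with octanal Il6 averaged 2.65 ± 1.13 CPM, which did not pass the test against LPS (log2 fold change -0.73 ± 0.41, adjusted p = 0.32 by edgeR) or against untreated cells (1.12 ± 0.43, adjusted p = 0.13). The order of the Il6 means, LPS above LPS with octanal above untreated, was also that of the summed T cell, NK cell and dendritic cell markers. Within LPS, replicate 3 held the highest Il6 and the lowest T cell sum, 1070 CPM. The part of these cells in the Il6 values was not tested.

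Ebi3 and Il12a stood highest in the cells given octanal. Ebi3, the soluble receptor-like subunit of interleukins 27 and 35, was at 109, 180 and 169 CPM in LPS with octanal, at 44.9, 66.5 and 71.1 CPM in LPS and at 45.7, 45.8 and 65.3 CPM in untreated cells. The lowest library with octanal was above the highest of either other group, and the LPS and untreated libraries overlapped. Ebi3 rose in LPS with octanal, to 153 ± 38.2 CPM, against 52.3 ± 11.3 CPM in untreated cells (SD, n = 3 each), a fold of 2.93 (log2 fold change 1.55 ± 0.25, adjusted p = 0.0099 by edgeR). Without LPS with octanal replicate 2, the highest of the group, the log2 fold change was 1.41 and the adjusted p was 0.0504. Against the LPS mean of 60.8 ± 14 CPM the log2 fold change was 1.33 ± 0.25, with an adjusted p of 0.057, just outside the threshold of 0.05. The difference between LPS and untreated cells was 0.22 ± 0.24 on the log2 scale (adjusted p = 0.51).

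Il12a, the p35 subunit that pairs with Il12b or Ebi3, was at 13, 14.2 and 13.4 CPM in LPS with octanal, a narrow range. It was at 2.75, 7.23 and 6.36 CPM in LPS and at 2.58, 2.13 and 1.38 CPM in untreated cells. The 3 groups did not overlap in any pair. Il12a rose in LPS with octanal, to 13.5 ± 0.616 CPM, against 2.03 ± 0.606 CPM in untreated cells (SD, n = 3 each), a fold of 6.63 (log2 fold change 2.73 ± 0.38, adjusted p = 0.0057 by edgeR). It also rose in LPS, to 5.45 ± 2.38 CPM, a fold of 2.68 over untreated cells (log2 fold change 1.42 ± 0.37, adjusted p = 0.019). That second call did not hold when LPS replicate 2, LPS replicate 3 or untreated replicate 3 was left out, with log2 fold changes of 1.13, 1.27 and 1.2 and adjusted p of 0.0713, 0.0618 and 0.0577. Between LPS with octanal and LPS the log2 fold change of Il12a was 1.31 ± 0.36, with an adjusted p of 0.092.

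Some monocyte markers were also highest with octanal. The sum of 8 non-classical monocyte markers was 1040 to 1300 CPM in LPS with octanal, 870 to 915 in LPS and 737 to 801 in untreated cells, the order of groups of Il12a, and again without overlap. Cebpb made up the largest part of that sum with octanal, and averaged 513, 276 and 271 CPM in these groups. It was at 405 to 625 CPM in LPS with octanal and 261 to 300 CPM in LPS. With Cebpb left out, the sums of LPS with octanal and LPS overlapped, and both stayed above those of untreated cells. Not every marker had this order, as Spn averaged 154, 280 and 131 CPM and Ace 2.69, 1.91 and 7.47 CPM. With octanal, 7 of the 8 had a positive log2 fold change against LPS and 5 against untreated cells. Of the 8, Cebpb and Pou2f2 rose in LPS with octanal against untreated and 0 fell, beside 2.63% of all genes higher and 6.03% lower, and Cebpb is also among the regulators described further on. Pou2f2, a lymphoid and myeloid transcription factor, averaged 144 ± 22 CPM in LPS with octanal, 73.4 ± 8.76 in LPS and 35.5 ± 14.1 in untreated cells. Of 9 classical monocyte markers Cd14 rose and 3 fell in that comparison, and of 12 macrophage markers Adgre1 rose and 7 fell. Cd14, the LPS co-receptor, averaged 1250 ± 188 CPM in LPS with octanal, 712 ± 70.1 in LPS and 533 ± 159 in untreated cells, and Adgre1 262 ± 87.4, 152 ± 42 and 99.6 ± 43.9 CPM in the same groups. The part of these markers' cells in the Ebi3 and Il12a values was not tested.

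**Figure D2:**
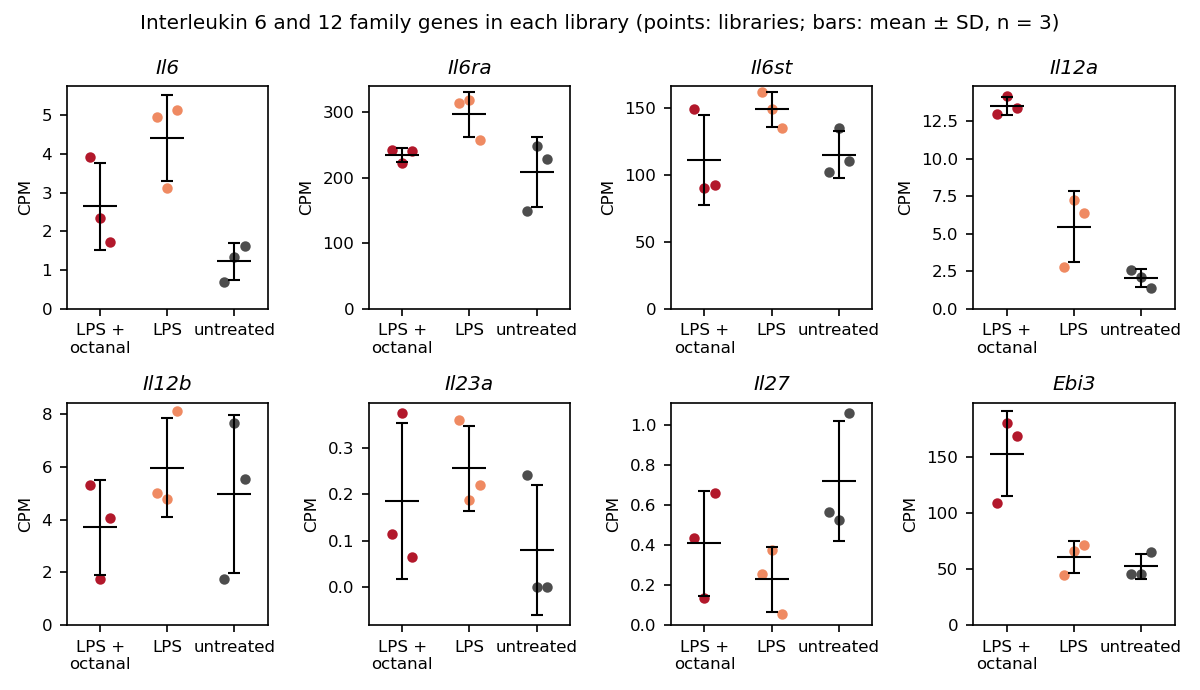
CPM of each gene (linear axes, 1 panel a gene) in LPS with octanal, LPS and untreated libraries; points are libraries, replicates 1 to 3 from left to right, and bars give mean ± SD (n = 3; for Il23a the bar reaches below 0). Il12a and Ebi3 sit highest with octanal, at 13 to 14.2 and 109 to 180 CPM, and Il6 sits lowest in untreated cells, at 0.699 to 1.63 CPM.

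Il12b, the p40 subunit shared by interleukins 12 and 23, varied widely within groups. It was at 5.32, 1.75 and 4.05 CPM in LPS with octanal, 5.02, 4.79 and 8.13 CPM in LPS and 1.75, 7.66 and 5.53 CPM in untreated cells. The 3 groups overlapped. No comparison of Il12b passed the test, with log2 fold changes of -0.69 ± 0.55 for LPS with octanal against LPS (adjusted p = 0.48), -0.42 ± 0.55 for LPS with octanal against untreated (0.65) and 0.27 ± 0.55 for LPS against untreated (0.74). Untreated replicate 1 held the lowest Il12b and Il6 of its group and also the lowest T cell marker sum, 121 CPM. LPS with octanal replicate 1 held the highest Il12b, Il6 and Il6st of its group and the highest sums of dendritic cell (1340 CPM), T cell (942 CPM) and NK cell markers (33.8 CPM). The part of these cell types was not tested.

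Il27, the p28 subunit of interleukin 27, had at most 30 counts in a library. It was at 0.432, 0.134 and 0.658 CPM in LPS with octanal, 0.257, 0.376 and 0.0553 CPM in LPS and 0.565, 0.524 and 1.06 CPM in untreated cells. The LPS libraries were all below the untreated ones, and those with octanal overlapped both groups. No comparison passed the test, with log2 fold changes of 0.82 ± 0.76 for LPS with octanal against LPS (adjusted p = 0.54), -0.81 ± 0.73 for LPS with octanal against untreated (0.5) and -1.63 ± 0.76 for LPS against untreated (0.13). Apobr, which shares exon sequence with Il27 on the opposite strand, had 3769 to 5054 counts in LPS with octanal, 1605 to 2132 in LPS and 4202 to 7127 in untreated cells, the same order of groups as Il27. Its part in the Il27 counts was not tested.

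Il23a, the p19 subunit of interleukin 23, had 4, 14 and 2 counts in LPS with octanal, 14, 6 and 8 in LPS and 9, 0 and 0 in untreated cells. At this depth its 3 groups were near the limit of detection, since a count of 0 in untreated replicates 2 and 3 allows up to 0.0982 and 0.106 CPM if 3 counts per library are taken as the floor. Such floors cover counting error only. It did not pass the filter on low counts. With no filter, its log2 fold changes were -0.42 ± 1.22 for LPS with octanal against LPS (adjusted p = 0.91), 1.12 ± 1.29 for LPS with octanal against untreated (0.65) and 1.54 ± 1.28 for LPS against untreated (0.44). Without untreated replicate 1, which held all 9 counts of its group, the untreated libraries left were at 0, Il23a passed the filter, and edgeR called it higher in LPS than in untreated cells (adjusted p = 0.0435), a call that rests on 6 to 14 counts in the LPS libraries.

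The receptor chains varied least of the 7 tested genes over the 9 libraries, with an SD of log2 CPM of 0.321 for Il6ra and 0.32 for Il6st. Il6ra, the chain that binds interleukin 6, was at 243, 223 and 241 CPM in LPS with octanal, 315, 319 and 258 CPM in LPS and 149, 249 and 229 CPM in untreated cells. All LPS libraries were above all others, and those with octanal lay within the range of the untreated ones. The log2 fold change of Il6ra was -0.34 ± 0.18 for LPS with octanal against LPS (adjusted p = 0.3), 0.17 ± 0.18 for LPS with octanal against untreated (0.57) and 0.51 ± 0.18 for LPS against untreated (0.06), so no comparison passed the test.

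Il6st, the gp130 chain that all cytokines of the interleukin 6 branch share, was at 149, 90.4 and 92.4 CPM in LPS with octanal, 162, 149 and 135 CPM in LPS and 102, 135 and 110 CPM in untreated cells. Replicate 1 stood apart within LPS with octanal, and the 3 groups overlapped. Its log2 fold changes were -0.42 ± 0.2 for LPS with octanal against LPS (adjusted p = 0.25), -0.06 ± 0.2 for LPS with octanal against untreated (0.87) and 0.36 ± 0.2 for LPS against untreated (0.19). Without LPS with octanal replicate 1 the difference from LPS was -0.66 with an adjusted p of 0.0469 by edgeR.

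**Figure D3:**
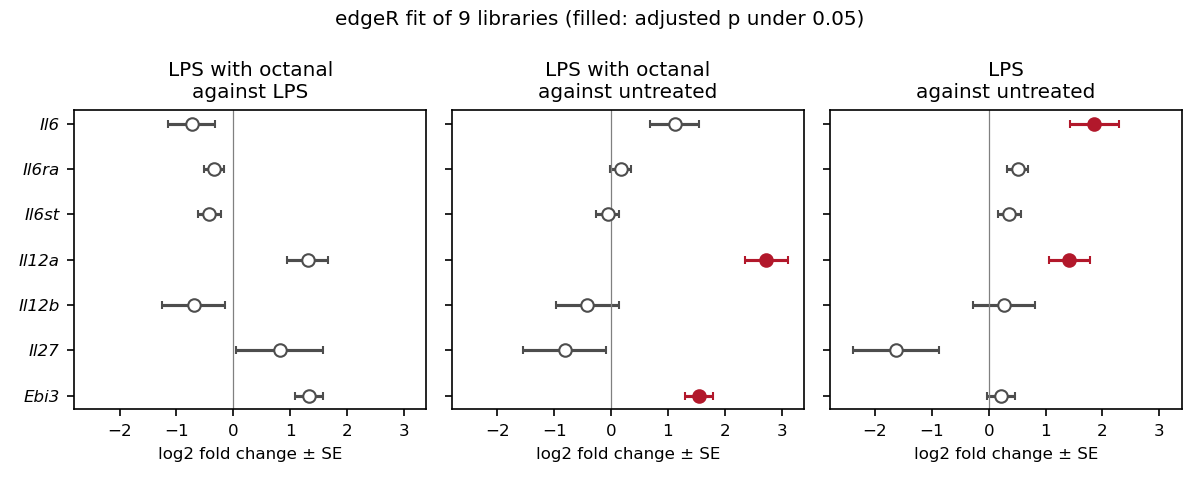
Log2 fold change ± SE by edgeR for the 7 genes tested, in LPS with octanal against LPS, LPS with octanal against untreated and LPS against untreated; filled points have an adjusted p under 0.05. The filled points are Il12a at 2.73 and Ebi3 at 1.55 for LPS with octanal against untreated, and Il6 at 1.86 and Il12a at 1.42 for LPS against untreated.

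Of the 8 genes, 7 passed the filter on low counts and were tested among 15447 genes. In LPS with octanal against untreated 2 of the 7 rose and 0 fell, against 8.67% of all genes called, 2.63% higher and 6.03% lower. In LPS against untreated 2 rose and 0 fell, against 32.8% of all genes called, 15.2% higher and 17.6% lower, so the share of members was near the background. From FPKM with limma 59.8% of the called genes of that comparison were higher in LPS, against 46.4% from counts. In LPS with octanal against LPS edgeR called 0 of the 7, and 0% of all genes. There 3450 of the 15447 genes had an unadjusted p under 0.05, limma-voom called 0 genes and DESeq2 called 1800, or 11.7%, of which 1394, or 9.02% of all genes, were higher with octanal, Il12a and Ebi3 among them, and 2.63% were lower. A fit of these 2 groups alone called 9.27% of the genes it tested, 6.35% higher and 2.92% lower, with Ebi3 the only member. The libraries of both groups did not overlap for 3 of the 7 members in LPS with octanal against LPS, with Il12a and Ebi3 above and Il6ra below, beside 38.1% of all genes (18.3% above and 19.9% below). For LPS with octanal against untreated they did not overlap for Il6, Il12a and Ebi3, all above, beside 29.8% of all genes (13.5% above and 16.3% below). For LPS against untreated Il6, Il6ra and Il12a lay above and Il27 below, beside 51.5% of all genes (26.7% above and 24.8% below). The comparisons share libraries and are not independent of each other. The median log2 fold change of the 7 genes was -0.34 for LPS with octanal against LPS, 0.17 for LPS with octanal against untreated and 0.36 for LPS against untreated, beside -0.05, -0.01 and 0.01 for all genes.

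The call for Ebi3 between LPS with octanal and LPS depended on the setting. Its log2 fold change ranged from 1.18 to 1.56 over 18 alternatives, with adjusted p of 6.9e-05 to 0.22, and 7 of them called it. These were DESeq2, a fit without the filter (1.36, adjusted p = 0.0386), a filter at 10 CPM (1.32, 0.0459), limma on FPKM (1.23, 0.0497), a fit of these 2 groups alone (1.36, 0.0359) and fits without untreated replicate 2 (1.36, 0.0406) or LPS with octanal replicate 1 (1.56, 0.044). Il12a in the same comparison ranged from 1.01 to 1.61 and was called by DESeq2 alone (1.34, adjusted p = 0.00505). The Il12a rise in LPS with octanal against untreated held in all 18 alternatives, between 2.54 and 2.94, and the Il6 rise in LPS held in all 17 that tested it, between 1.53 and 2.11.

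**Figure D4:**
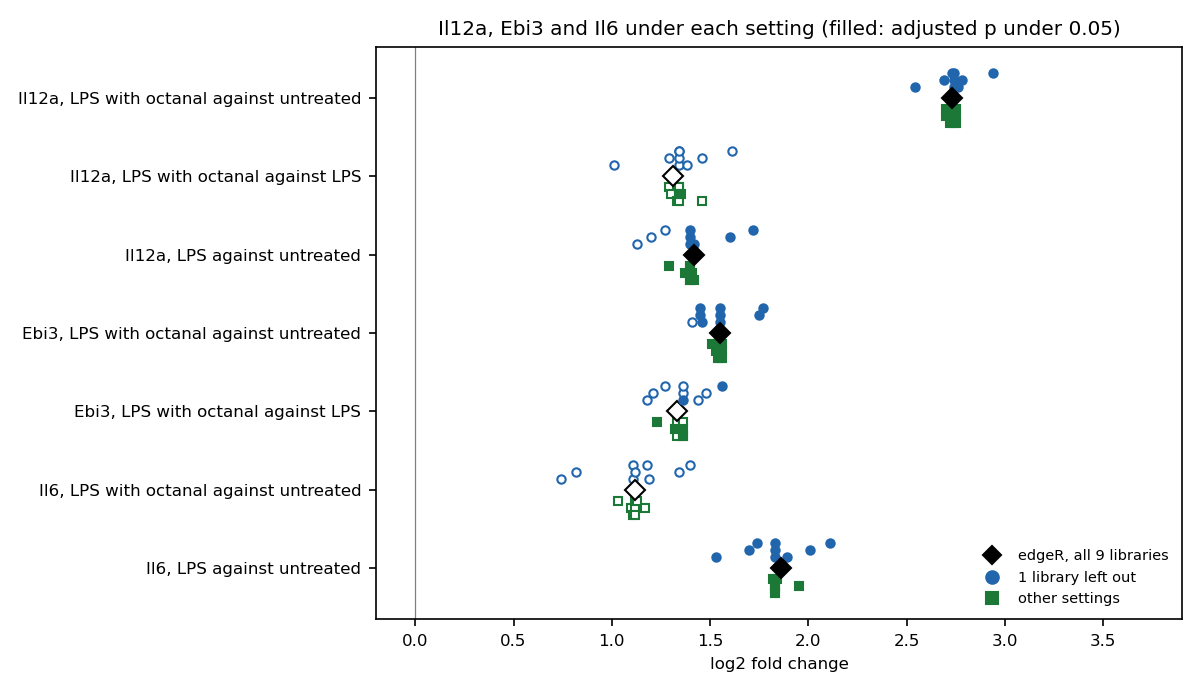
Log2 fold change of Il12a in all 3 comparisons, Ebi3 in both comparisons of LPS with octanal and Il6 in both comparisons with untreated, with all 9 libraries (diamonds), with 1 library left out (circles) and under other settings (squares); filled symbols have an adjusted p under 0.05 and vertical offsets within a row only separate symbols. The values drawn lie between 0.74 and 2.94, and those of Ebi3 and Il12a for LPS with octanal against LPS are mostly open.

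Subunits that pair in a cytokine were compared within each library as ratios of deposited FPKM. The ratio of Il12a to Il12b, the subunits of interleukin 12, was 3.61, 11.8 and 4.8 in LPS with octanal, 0.81, 2.24 and 1.15 in LPS and 2.18, 0.408 and 0.359 in untreated cells. All libraries with octanal were above all others. The mean log2 ratio differed by 2.21 between LPS with octanal and LPS, by 3.11 between LPS with octanal and untreated and by 0.9 between LPS and untreated. By exact two-sided permutation tests over 3 against 3 libraries the p-values were 0.1, 0.1 and 0.3, where 0.1 is the smallest possible, and 0.2, 0.2 and 0.45 after Benjamini-Hochberg adjustment over 12 ratio comparisons.

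The ratio of Ebi3 to Il12a, the pair of interleukin 35, was 9.22, 14.2 and 14.2 in LPS with octanal, 17.9, 10.1 and 12.3 in LPS and 19.6, 23.7 and 53.5 in untreated cells, so Ebi3 was in excess in all libraries. It was lower in all libraries of both LPS groups than in untreated cells. The log2 difference was -1.25 for LPS with octanal against untreated and -1.16 for LPS against untreated, each with an exact permutation p of 0.1, the smallest possible for 3 against 3, and -0.09 for LPS with octanal against LPS (exact p = 0.9). The ratio of Ebi3 to Il27 was 236, 1270 and 233 in LPS with octanal, 164, 159 and 1220 in LPS and 72.5, 77.5 and 55.8 in untreated cells, and rests on few Il27 counts. The ratio of Il6ra to Il6st lay between 1.55 and 2.75 in all 9 libraries.

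By the root mean square difference of centred log2 CPM over the 9 libraries, the genes closest to each member were sought among 8706 genes above 10 CPM. Closest to Il12a were Cxcl3 (0.358), a neutrophil-attracting chemokine, Irak3 (0.388), a brake on Toll-like receptor signalling, and Sod2 (0.397), the mitochondrial superoxide dismutase. Mean CPM of Sod2 was 902 in LPS with octanal, 452 in LPS and 169 in untreated cells. Closest to Ebi3 were Pilrb1 (0.143), Mapkapk2 (0.146), a kinase downstream of p38 that controls cytokine mRNA stability, and Rab20 (0.199), and Mapkapk2 averaged 1040 CPM in LPS with octanal, 475 in LPS and 359 in untreated cells. Closest to Il6 were Itgb8 (0.189), an integrin chain, Pde3b (0.219), a phosphodiesterase, and Klhdc1 (0.22). Closest to Il6ra was Ski (0.0661), to Il6st Irf2bpl (0.0734), to Il12b Trp53i13 (0.366) and to Il27 Gpat3 (0.362). Among the members themselves, Il6ra and Il6st were the closest pair (0.25), Il12a and Ebi3 differed by 0.689, Il12a and Il12b by 1.54, and Il12a and Il27 were the farthest apart (1.74). This measure tends to grow with the spread of the genes compared, and Il6ra and Il6st varied least (SD 0.321 and 0.32). So it does not rank pairs by the likeness of their patterns alone. Il27 had 2 to 30 counts a library, so its distances also hold counting error.

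The other genes of the pathway were taken from lists. Of 7 other ligands that signal through gp130, 4 were tested, and Clcf1, a ligand of the ciliary neurotrophic factor receptor, was the only called one, beside 32.8% of all genes called in LPS against untreated. It rose in LPS, to 73.3 ± 6.86 CPM, against 32.1 ± 21.2 CPM in untreated cells (log2 fold change 1.19, adjusted p = 0.046 by edgeR), a call that was lost in 10 of 18 alternatives. Osm, oncostatin M, was at 31.5 ± 4.79 CPM in LPS with octanal, 18.3 ± 2.27 in LPS and 23.9 ± 9.12 in untreated cells and passed no test. Of 9 other receptor chains 6 were tested, and 1 rose and 1 fell in LPS against untreated, a share near that of all genes. Il27ra, the specific receptor chain of interleukin 27, rose in LPS, to 76.4 ± 16.7 CPM, against 21.6 ± 15.3 CPM in untreated cells (1.82, adjusted p = 0.022), but not without untreated replicate 3 or LPS replicate 1. Il12rb1, the receptor chain shared by interleukins 12 and 23, fell in LPS, to 0.568 ± 0.085 CPM, against 2.52 ± 0.699 CPM (-2.14, adjusted p = 0.0043). With octanal, no gene of either list was called against LPS or against untreated cells, beside 0% and 8.67% of all genes called. Clcf1 and Il27ra had the order of means of the summed T cell, NK cell and dendritic cell markers, LPS above LPS with octanal above untreated. Il12rb1 had that of the summed neutrophil, classical monocyte and macrophage markers, untreated above LPS with octanal above LPS. The part of these cells was not tested.

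The kinases and STAT factors below these receptors moved in 1 direction where they were called. Of 6, 2 rose in LPS with octanal against untreated, beside 2.63% of all genes higher and 6.03% lower, and 3 rose in LPS against untreated, beside 15.2% higher and 17.6% lower, and 0 fell in either. Tyk2, the kinase bound to the interleukin 12 receptor, averaged 212 ± 17.7 CPM in LPS with octanal, 178 ± 17.7 in LPS and 121 ± 6.74 in untreated cells. It rose in LPS with octanal against untreated (log2 fold change 0.81, adjusted p = 0.0049 by edgeR) and in LPS against untreated (0.56, 0.0061). The other calls were Jak1 and Jak2 in LPS (0.73 and 0.64) and Jak2 in LPS with octanal (0.61), and each was lost in at least 4 alternatives. Stat3 was at 266 ± 57.6 CPM in LPS with octanal, 282 ± 28.6 in LPS and 262 ± 54.4 in untreated cells, with log2 fold changes of 0.02 against untreated and -0.08 against LPS for octanal and 0.1 for LPS against untreated.

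Genes known as STAT3 targets or feedback inhibitors numbered 8, all tested, and many also respond to NF-kappaB. In LPS with octanal against untreated 5 rose and 0 fell, beside 2.63% of all genes higher and 6.03% lower, with a median log2 fold change of 1.04, beside -0.01 for all genes. In LPS against untreated 7 rose and 1 fell, beside 15.2% higher and 17.6% lower, with a median of 0.9, beside 0.01. Some of these calls were weak. The rise of Socs1 in LPS with octanal and that of Junb in LPS were each lost in 9 of 18 alternatives. In LPS the rise of Il4ra was lost in 2 and that of Socs1 in 1. Il10, an anti-inflammatory cytokine, averaged 28.9 ± 1.43 CPM in LPS with octanal, 17.1 ± 3.87 in LPS and 1.65 ± 1.45 in untreated cells, and rose in LPS with octanal (4.14, adjusted p = 0.0048 by edgeR) and in LPS (3.38, 0.0027) against untreated cells. Socs3, the inhibitor that binds gp130, averaged 82.5 ± 30.6 CPM in LPS with octanal, 77.1 ± 29.6 in LPS and 24.9 ± 4.12 in untreated cells. It rose in LPS with octanal (1.73, adjusted p = 0.018, lost without untreated replicate 1 or LPS with octanal replicate 2) and in LPS (1.63, 0.008). Pim1 and Bcl3 also rose in both comparisons, by 0.96 and 1.17 in LPS with octanal and by 1 and 0.72 in LPS. Cebpd, a C/EBP factor, fell in LPS (-1.56, adjusted p = 0.0036), to 27.3 ± 2.78 CPM, against 80.3 ± 23.8 CPM in untreated cells, and was at 67.3 ± 18 CPM in LPS with octanal.

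**Figure D5:**
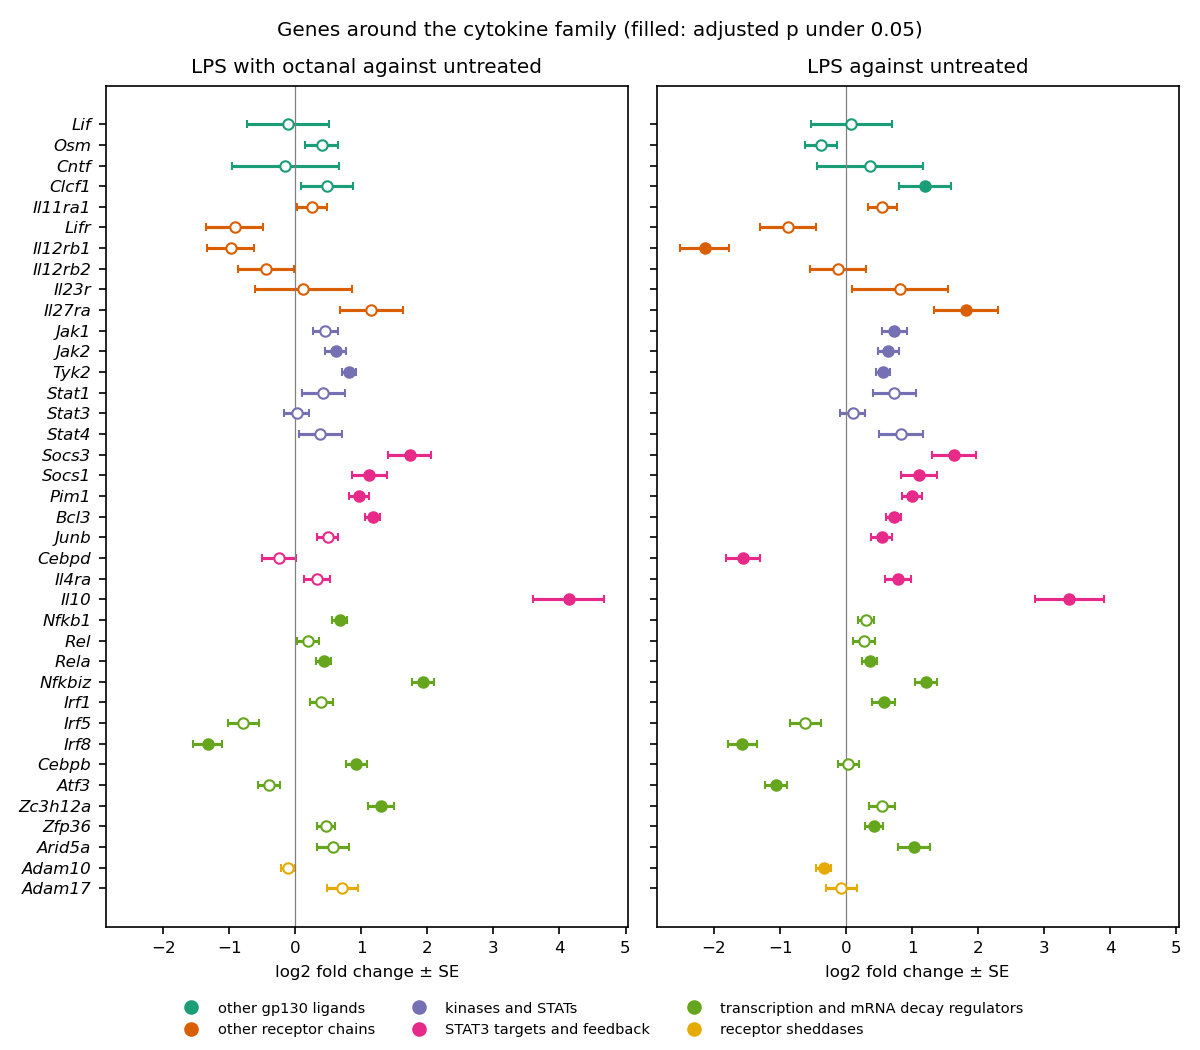
Log2 fold change ± SE by edgeR of tested genes from the lists of ligands, receptor chains, kinases and STATs, STAT3 targets, regulators and sheddases, in LPS with octanal against untreated (left) and LPS against untreated (right); filled points have an adjusted p under 0.05. Il10 lies farthest to the right, at 4.14 with octanal and 3.38 with LPS, and Il12rb1 farthest to the left in LPS, at -2.14.

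Of 12 transcription factors and mRNA decay factors known to act on Il6 or Il12 family transcripts, 5 rose and 1 fell in LPS with octanal against untreated, beside 8.67% of all genes called, and 5 rose and 2 fell in LPS against untreated, beside 32.8%. Nfkbiz, the nuclear NF-kappaB cofactor needed for Il6 induction, averaged 254 ± 52.2 CPM in LPS with octanal, 155 ± 8.82 in LPS and 66.9 ± 9.07 in untreated cells. It rose in LPS with octanal (1.93, adjusted p = 0.00084 by edgeR) and in LPS (1.21, 0.0015) against untreated cells. Zc3h12a, the RNase regnase-1 that degrades Il6 and Il12b mRNA, rose in LPS with octanal, to 145 ± 30.7 CPM, against 59.5 ± 8.01 CPM in untreated cells (1.29, adjusted p = 0.0082). Cebpb rose in LPS with octanal, to 513 ± 110 CPM, against 271 ± 20.6 CPM in untreated cells (0.92, adjusted p = 0.013), a call lost in a fit of these 2 groups alone. Against the LPS mean of 276 ± 21 CPM its log2 fold change was 0.9 (adjusted p = 0.054), and 7 of 18 alternatives called it.

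Irf8, a factor that drives Il12b transcription, fell in both comparisons, to 46.6 ± 5.27 CPM in LPS with octanal (-1.33, adjusted p = 0.012 by edgeR, lost without LPS with octanal replicate 2) and to 39.5 ± 1.41 CPM in LPS (-1.57, 0.0021), against 117 ± 42.8 CPM in untreated cells. Atf3, a repressor of Il6 and Il12b, fell in LPS, to 91.1 ± 7.58 CPM, against 190 ± 38.9 CPM (-1.06, adjusted p = 0.0026), and was at 144 ± 20.3 CPM in LPS with octanal. The means of Irf8, Atf3 and Cebpd were lowest in LPS and highest in untreated cells. The summed neutrophil, classical monocyte and macrophage markers had the same order of means. Classical monocyte sums were 5660 to 8390 CPM in LPS with octanal, 2950 to 4120 in LPS and 6190 to 14200 in untreated cells. The part of these cells in the values of Irf8, Atf3 and Cebpd was not tested. The rises of Rela, Zfp36 and Irf1 in LPS were lost in at least 10 of 18 alternatives, and that of Rela in LPS with octanal (0.43, adjusted p = 0.0495 by edgeR) in 14 of 18. Adam17, a protease that sheds the interleukin 6 receptor, averaged 676 ± 125 CPM in LPS with octanal, 394 ± 94.7 in LPS and 414 ± 85.3 in untreated cells, with adjusted p of 0.11 against LPS and 0.091 against untreated. Adam10, the other sheddase listed, fell in LPS against untreated (-0.34, adjusted p = 0.047 by edgeR), beside 17.6% of all genes called lower. That call was lost in 14 of 18 alternatives. Of 6 genes made by T helper 1 and 17 cells 3 were tested and 0 were called, beside 8.67% of all genes for LPS with octanal against untreated and 32.8% for LPS against untreated. Ifng averaged under 1 CPM in each group, at 0.0192, 0.0626 and 0.116 CPM in LPS with octanal, LPS and untreated cells, and Il17a had 0 counts in all 9 libraries.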

How the data were processed

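RNA was extracted with TRIzol from wild-type mouse spleen monocytes, 3 libraries in each of 3 groups. The table the authors deposited holds, per the file headers, a raw count and an FPKM value (fragments scaled per gene length and depth) for every gene in each library. The submitters' processing notes name the build GRCm38. Aligner, counting tool and strand: not given in the sources used here. Its 26770 rows were 22035 Ensembl genes (22021 found in GENCODE M21) and 4735 unannotated loci, after leaving out 10 lines of text. In 2 unannotated loci the deposited annotation names Il6ra, with at most 6 counts a library, and they were not counted as members.

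The test was edgeR 4.0.16 in R 4.3.3: counts of all 9 libraries entered 1 quasi-likelihood fit with a mean per group, after filterByExpr and TMM scaling (factors 0.923 to 1.07). A gene was called at a Benjamini-Hochberg adjusted p under 0.05 over 15447 genes. CPM use TMM-scaled totals; each library held 29594291 to 38388421 counts. Alternatives used DESeq2 1.42.0 and limma 3.58.1 (voom, and trend on log2(FPKM + 0.1) for genes of at least 0.5 FPKM in 3 libraries), other filters, scaling and sample sets, and each library left out. Centred log2 CPM for likeness between genes used a prior count of 3, and each member's closest 3 genes were taken. Genes were named by membership of the family or of its pathway lists. The members and lists were chosen with earlier results of these data known.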

Additional observations from a re-analysis of the deposited data

How the results depend on the processing

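Il6 in LPS against untreated and Il12a in LPS with octanal against untreated were called under all alternatives that tested them. No called member or pathway list gene named here changed direction. Cell type markers outside those lists were not followed under the alternatives. The count of called genes in LPS with octanal against LPS was 0 with edgeR, 279 without the filter, 323 with a filter at 10 CPM, 1800 with DESeq2, 118 without unannotated loci, 149 with limma on FPKM and 1380 with these 2 groups alone, and lay between 0 and 584 with 1 library left out, where leaving out untreated replicate 1 gave 109, untreated replicate 2 gave 527, octanal replicate 1 gave 584 and octanal replicate 2 gave 3. Members called there numbered 1 without the filter, 1 at 10 CPM, 2 with DESeq2, 1 on FPKM, 1 with 2 groups alone, and 0 to 2 with 1 library left out. Against untreated, LPS with octanal had 1339 called genes, 2798 with DESeq2, 404 with 2 groups alone and 298 (without LPS with octanal replicate 2) to 2137 (without untreated replicate 2) with 1 library left out, with 1 to 2 members. LPS against untreated had 5072 called genes, and 2387 (without LPS replicate 1) to 5658 with 1 library left out, with 1 to 3 members (3 without untreated replicate 1, where Il23a was called, and 3 without untreated replicate 2, where Il6ra was); 1 member was called at 10 CPM, where Il6 was not tested, and 1 with 2 groups alone, where Il12a had an adjusted p of 0.0521 by edgeR. On the FPKM scale the median log2 fold change of all genes was 0.13 for LPS against untreated and -0.13 for LPS with octanal against LPS.

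With 1 library left out, 4 uncalled values changed sign. Il12b in LPS against untreated ranged from -0.17 (untreated replicate 1 left out; -0.04 for LPS replicate 3) to 0.68, and against untreated in LPS with octanal from -0.84 to 0.01 (untreated replicate 2 left out). In the same comparison Il6ra ranged from -0.03 (untreated replicate 1 left out) to 0.3, and Il6st from -0.32 to 0.06 (untreated replicate 2 or octanal replicate 2 left out; 0.05 for octanal replicate 3). Il6ra in LPS against untreated was called with DESeq2 (0.48, adjusted p = 0.0473), on FPKM with limma (0.63) and with edgeR without untreated replicate 2 (0.62). The causes were not tested.

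Replicate numbers showed no clear pairing of the samples: deviations of same-numbered libraries correlated at -0.09 to 0.18, with 1 of 9 pairs over 0.1, and those of other pairs at -0.15 to 0.21. With 3 libraries in a group these correlations depend on each other, so a weak pairing could be missed. With the replicate block edgeR called 4257 genes in LPS against untreated, 0 in LPS with octanal against LPS and 923 in LPS with octanal against untreated, with 2, 0 and 2 members. Depth limits Il23a, with at most 14 counts in a library, and Il27, with at most 30.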
